A study of Homo sapiens with 9 samples.

Results

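The noncoding snoRNA host genes are RNA genes that carry small nucleolar RNAs (snoRNAs) in their introns. Members were 10 genes fixed by symbol: *GAS5*, *SNHG1*, *SNHG5*, *SNHG6*, *SNHG8*, *SNHG12*, *SNHG15*, *SNHG16*, *DANCR* and *ZFAS1*. Of these, 9 had a row among the 54562 Ensembl genes of the expression table, and *SNHG8* was not analysed here. Values are FPKM, fragments scaled to transcript length and to the mapped fragments of the library. All 9 averaged over 1 FPKM and so were among the 13801 genes tested.

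A host gene is transcribed and spliced like an mRNA gene, and its snoRNAs are trimmed from the excised introns. The snoRNAs then guide the methylation or pseudouridylation of ribosomal RNA. The spliced exons left behind often begin with a run of pyrimidines, the 5′ terminal oligopyrimidine (TOP) feature shared with ribosomal protein mRNAs. Such RNAs are engaged by ribosomes when growth signals are high, hold only short open reading frames, and are in several known cases destroyed by nonsense-mediated decay, the pathway that degrades RNAs with early stop codons. Their level therefore depends on transcription and on decay.

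The study asked what the 2 protein isoforms of *ADARB1* (ADAR2, an adenosine-to-inosine RNA editing enzyme) do in HEK293, a human embryonic kidney line with little of the enzyme of its own. Cells were transfected with an empty vector (EV, 3 libraries), with a plasmid for the isoform that skips the *Alu*-derived exon (Short, 3 libraries) or with one for the isoform that includes it (Long, 3 libraries). All 9 libraries came from the same line, reagent and collection time, 48 hours after transfection, and the ADARB1 cDNAs were carried by pCMV6 vectors, in which a viral CMV promoter drives expression. The transfections were transient. Replicates 1, 2 and 3 were made in 3 cell passages, so that each number names an EV, a Short and a Long library of the same passage. A library pools every cell of a dish, transfected or not, so fewer cells with a change and less RNA per cell cannot be told apart.

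To show what the exonic RNAs begin with, the 30 bases around the most frequently annotated transcript start were read from GRCh37, from 10 bases before the start to base 20 of the transcript. Capitals mark runs of at least 5 C or T on the transcribed strand, the letters from which a TOP start is built. The windows lie at chr1:173837108-173837137, minus strand (*GAS5*), chr11:62623338-62623367, minus (*SNHG1*), chr6:86388447-86388476, minus (*SNHG5*), chr1:28908366-28908395, minus (*SNHG12*), chr7:45026248-45026277, minus (*SNHG15*), chr17:74553838-74553867, plus (*SNHG16*), chr4:53578658-53578687, plus (*DANCR*) and chr20:47895169-47895198, plus (*ZFAS1*). They are printed 5′ to 3′ for 8 of the members.
GAS5: accatactgTCTTTTCgaggtaggagtcga
SNHG1: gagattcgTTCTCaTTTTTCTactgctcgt
SNHG5: ggagctactggctgcgcacttcggTCTTTT
SNHG12: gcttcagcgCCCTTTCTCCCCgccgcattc
SNHG15: cgaggtgcgcggcgcagcgcgcggcgtcag
SNHG16: gcggtctcgcgTTCTTTTCgaggtcggccg
DANCR: gcaggtcgcaggCCTCTTTgtcagctggag
ZFAS1: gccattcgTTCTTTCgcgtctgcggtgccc

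Of the 8 windows, 7 held such a run (87.5%), and 6 (75.0%) held one in which a C was followed by at least 4 more pyrimidines. Runs were counted anywhere in the window, so a run need not lie at the transcript start. That of *SNHG5* lay at the far end of its window. Over the 38877 long noncoding and protein-coding genes of the annotation the shares were 47.9% and 37.1%. The longest run was in *SNHG12* (12 bases), followed by *SNHG16* (8 bases). *SNHG15* was the window without a run, which says only that these letters were not in this window. *GAS5* and *SNHG16* shared the 12 bases TCTTTTCGAGGT, across the start in *GAS5* and just after it in *SNHG16*, which were found in 2 of the 38877 windows, their own. A 9-base stretch common to *SNHG1* and *ZFAS1*, ATTCGTTCT, was found in 3 windows. These stretches were picked out after the sequences had been read and describe likeness of letters only. Annotated starts differ between transcripts of a gene: the start shown was that of 50 of 91 annotated *GAS5* transcripts, 61 of 89 of *SNHG5* and 25 of 80 of *SNHG1*, but of 5 of 18 of *SNHG16*, 4 of 19 of *SNHG12* and 2 of 14 of *SNHG15*.

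The hosts differ widely in how many snoRNAs they carry. By RefSeq names, *GAS5* (ENSG00000234741, chr1:173827697-173838020, minus strand, 12 exons) holds 11, among them SNORD44, SNORD47 and SNORD74 to SNORD81, and *SNHG1* (ENSG00000255717, chr11:62619450-62623425, minus, 11 exons) holds 9, mainly SNORD22 and SNORD25 to SNORD31. *SNHG12* (ENSG00000197989, chr1:28905050-28909644, minus, 6 exons) holds 4, which are SNORD99 and the pseudouridylation guides SNORA16A, SNORA44 and SNORA61. Both *SNHG16* (ENSG00000163597, chr17:74553809-74667067, plus, 4 exons) and *ZFAS1* (ENSG00000177410, chr20:47894715-47916137, plus, 5 exons) hold 3, the SNORD1 and the SNORD12 copies. *SNHG5* (ENSG00000203875, chr6:86360209-86388650, minus, 6 exons) holds 2, SNORD50A and SNORD50B. *SNHG15* (ENSG00000232956, chr7:45022618-45026560, minus, 3 exons), *DANCR* (ENSG00000226950, chr4:53578492-53589790, plus, 4 exons), *SNHG6* (ENSG00000245910, 3 exons) and *SNHG8* hold 1 each, SNORA9, SNORA26, SNORD87 and SNORA24.

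Of these 36 snoRNA genes, 7 could be matched by coordinates to a row in the table, and the others could not be matched. All 7 (SNORD78, SNORD99, SNORD1B, SNORA26 and the 3 SNORD12 copies) were listed at 0 in every library. The same held for 715 of the 801 named snoRNA and small Cajal body RNA genes of the table. The libraries were made from polyadenylated RNA, and snoRNAs have no poly(A) tail. The values below are therefore those of the spliced host RNAs and say nothing about the snoRNAs made from their introns.

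*ADARB1* itself stood at 7.66 to 8.61 FPKM in the EV libraries, at 1889 to 4145 FPKM in Short and at 1695 to 3449 FPKM in Long, with passage 2 highest in both. Of 7 listed markers of the line, 6 had a row and *NEFL* had none. *KRT8* was at 163 to 216 FPKM, *VIM* at 132 to 164 FPKM, *KRT18* at 76.3 to 99.6 FPKM and *NEFM* at 48.6 to 75.5 FPKM. *LIN28B* was at 7.90 to 25.5 FPKM, and *PAX2* at only 1.73 to 2.87 FPKM. Of markers of other cell types, *HBB*, a red cell gene, was at 0 throughout, and *ALB*, *APOA1*, *CD3E*, *DCN* and *PTPRC* were below 0.33 FPKM. *COL1A1*, on the list as a fibroblast marker, lay at 9.10 to 12.9 FPKM. Of 6 HEK293 markers tested, *KRT8* was higher (0.20 on the log2(FPKM + 1) scale, adjusted p = 0.0499) and *LIN28B* lower (-0.56, adjusted p = 0.0223) in Long than in EV. The *KRT8* call held in 1 of 13 alternatives and was lost without any of the passages (adjusted p of 0.128, 0.443 and 0.162), and that of *LIN28B* held in 7 and was lost without passage 1 (0.162) or 2 (0.192). Read totals are not given in the table, and the steps between the lowest values gave relative depths of 0.986 to 1.21, with EV replicate 1 as 1. The 3 passage 3 libraries stood apart: their deviations from the group means correlated at -0.634 to -0.367 with those of the other passages and at 0.715 to 0.813 with each other. The 3 deviations of a group sum to 0 for every gene, so the negative values between passages are in part built in.

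The 9 host RNAs were abundant in cells that had received the empty vector, on the FPKM scale, which is per length. *SNHG5*, first known from a lymphoma breakpoint, was the highest, with 210.0, 222.4 and 225.1 FPKM in passages 1, 2 and 3, a mean of 219 ± 8.10 FPKM (SD, n = 3). That was above 97.9% of the 13815 genes that averaged 1 FPKM or more in EV, whose median was 11.6 FPKM. *GAS5*, named for its rise in growth-arrested cells and known as a decoy of the glucocorticoid receptor, followed with 173.1, 186.0 and 145.6 FPKM, or 168 ± 20.6 FPKM. *SNHG1*, long known as the host of U22, read 99.6, 109.5 and 115.2 FPKM, or 108 ± 7.88 FPKM.

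A middle pair could not be ordered. *ZFAS1*, which starts beside *ZNFX1* on the opposite strand, read 81.2, 92.5 and 73.1 FPKM in EV (82.2 ± 9.72 FPKM, SD, n = 3). *SNHG6*, the host of U87, read 80.7, 85.4 and 76.5 FPKM (80.8 ± 4.46 FPKM), within the range of *ZFAS1*. The lower end held 4 genes. *DANCR*, known for holding epidermal progenitors undifferentiated, read 38.0, 39.0 and 44.9 FPKM (40.6 ± 3.78 FPKM), and *SNHG16*, described early in neuroblastoma, read 39.3, 40.8 and 38.5 FPKM (39.6 ± 1.14 FPKM), so that these also overlapped.

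*SNHG15*, whose RNA is known to be short-lived, read 29.1, 33.7 and 30.2 FPKM (31.0 ± 2.39 FPKM). *SNHG12* was the lowest with 18.9, 22.4 and 25.3 FPKM (22.2 ± 3.25 FPKM), still above 70.0% of expressed genes. Every other neighbouring pair was separate in the EV libraries, with ratios of the means from 1.28 (*SNHG16* over *SNHG15*) to 1.99 (*SNHG6* over *DANCR*). Over all 9 libraries, *SNHG16* and *SNHG15* overlapped too. The order did not follow the number of hosted snoRNAs, since *SNHG5*, with 2, stood above *GAS5*, with 11.

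**Figure D1:**
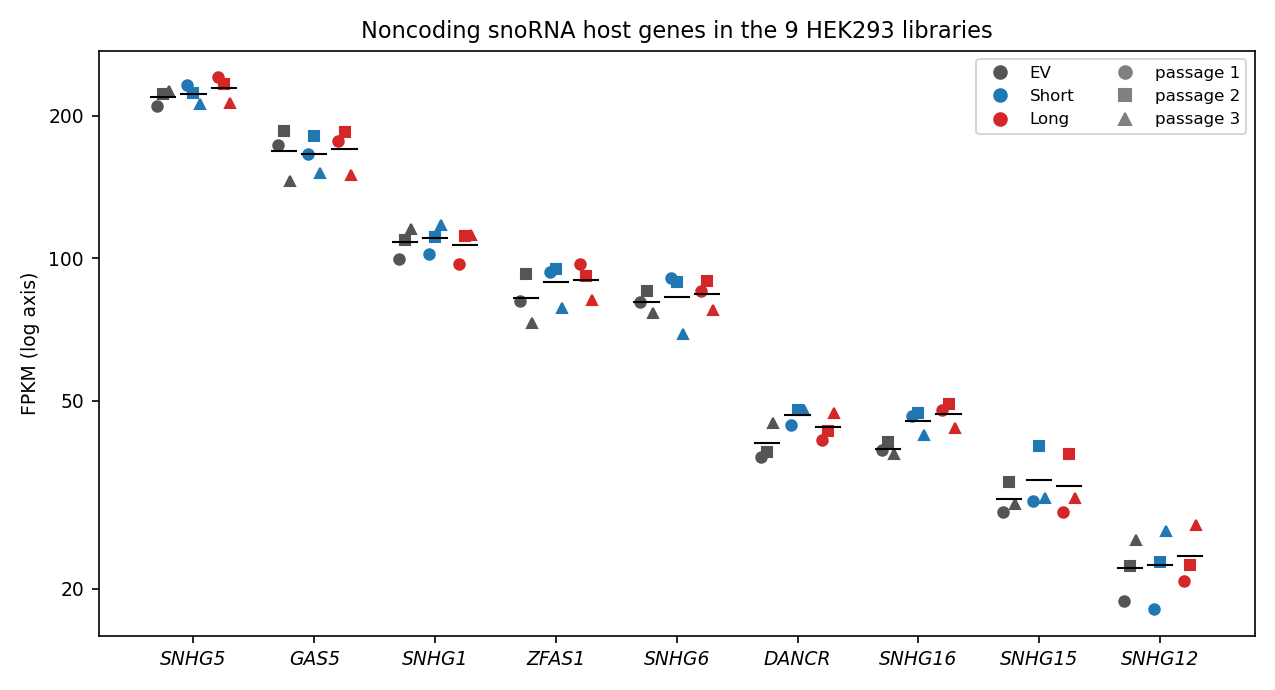
FPKM of the 9 measured host RNAs in each library on a log axis, coloured by plasmid (EV, Short, Long) and shaped by passage, with a bar at each group mean (n = 3). The genes run from *SNHG5*, at 210.0 to 241.2 FPKM, down to *SNHG12*, at 18.1 to 27.3 FPKM. *ZFAS1* and *SNHG6*, and *DANCR* and *SNHG16*, lie closer to each other in EV than the group means of *SNHG16* do.

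Several of these genes overlap others on the opposite strand, and the kit kept strand, but whether strand was used in counting is not stated. *SNHG12* is the case in which this matters most for the level, since *TRNAU1AP* opposite to it stood at 18.0 to 23.0 FPKM, near its own values. *ERVMER34-1*, opposite *DANCR*, was at 5.06 to 6.59 FPKM and *ZNFX1*, opposite *ZFAS1*, at 3.77 to 5.32 FPKM. Opposite *SNHG16*, *ST6GALNAC2* and *ST6GALNAC1* were at 0.289 to 1.07 FPKM.

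In Short, none of the 9 host RNAs passed the threshold against EV. *SNHG16* read 46.3, 47.1 and 42.3 FPKM in Short passages 1, 2 and 3, all above the 3 EV libraries. It was 1.18, 1.15 and 1.10 times its EV value in the same passage. The fitted difference was 0.19 on the log2(FPKM + 1) scale (95% interval 0.07 to 0.30, adjusted p = 0.110 by limma). Short libraries lay above all EV libraries in the same way for 10.9% of all genes. *DANCR* read 44.3, 47.8 and 47.9 FPKM in Short, and its lowest Short library lay below the highest EV library. Its difference was 0.20 (0.07 to 0.32, adjusted p = 0.110), with ratios of 1.17, 1.23 and 1.06 by passage.

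For the other 7 genes the EV and Short libraries overlapped. *ZFAS1* read 93.4, 94.8 and 78.5 FPKM in Short, a difference of 0.11 (-0.01 to 0.24, adjusted p = 0.272), and *SNHG15* 30.6, 40.1 and 31.1 FPKM, a difference of 0.12 (-0.02 to 0.26, adjusted p = 0.280). Both were higher than EV in 3 of 3 passages. Without a GC correction, which gave 0.11, 0.12 and 0.084, the 3 most abundant genes differed little: *GAS5*, at 166.1, 180.9 and 151.6 FPKM, differed from EV by -0.01 (-0.11 to 0.08), *SNHG5*, at 232.2, 223.8 and 212.2 FPKM, by 0.02 (-0.10 to 0.14), and *SNHG1*, at 102.3, 110.8 and 117.7 FPKM, by 0.03 (-0.07 to 0.13). *SNHG6* differed by 0.03 (-0.11 to 0.16) and *SNHG12* by 0.01 (-0.13 to 0.15), with adjusted p of 0.819 and 0.934.

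By limma, 0 of 9 members passed an adjusted p of 0.05 in Short against EV, as 0.0362% of all genes did in either direction, and 2 of 9 (*SNHG16* and *DANCR*) had an unadjusted p under 0.05, a share near the 22.0% of all genes. Higher in every passage were 5 of 9 members and 32.0% of all genes. The median difference was 0.029 over the members and 0.041 over all genes tested. Estimates were above 0 for 8 of 9 members and 61% of all genes, and for 4 of 9 members once values were rescaled to equal sums in each library (TPM, 40.1% of all genes) or by median ratios (48.7%). Exact permutation tests of 3 libraries against 3 cannot go below p = 0.1, which *SNHG16* reached, nor the paired exact test below 0.25.

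In Long, 1 of the 9 host RNAs rose against EV. *SNHG16* read 47.8, 49.2 and 43.8 FPKM in Long passages 1, 2 and 3, each above the highest EV library. Its mean was 46.9 ± 2.83 FPKM (SD, n = 3) against 39.6 ± 1.14 FPKM in EV, with ratios of 1.22, 1.21 and 1.14 in the 3 passages. The difference was 0.24 on the log2(FPKM + 1) scale (95% interval 0.12 to 0.36, adjusted p = 0.0216 by limma), or 1.18-fold. Groups did not overlap, which held for 10.5% of all genes in this direction, and the exact test gave its smallest possible p of 0.1.

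That call depended on the libraries and the model. Without passage 1, 2 or 3 the difference of *SNHG16* was 0.22, 0.23 or 0.27 and the adjusted p was 0.129, 0.226 or 0.0630, so that leaving out any passage ended the call. Without the pairing by passage the adjusted p was 0.637. Over 13 alternatives the difference ranged from 0.17 to 0.27 and the adjusted p from 0.0161 to 0.637, and 4 alternatives kept the call.

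The other 8 genes did not pass in Long against EV. *ZFAS1* came nearest, at 97.2, 91.6 and 81.4 FPKM in Long, a difference of 0.13 (0.01 to 0.26, adjusted p = 0.185), but in passage 2 it was 0.991 times its EV value. *DANCR* read 41.3, 43.2 and 47.2 FPKM, higher than EV in 3 of 3 passages by 0.11 (-0.01 to 0.24, adjusted p = 0.257). *SNHG12*, at 20.8, 22.5 and 27.3 FPKM, and *SNHG15*, at 29.1, 38.6 and 31.1 FPKM, each differed by 0.08, with intervals that reached from -0.06 to 0.22 and to 0.21. All of these overlapped with EV.

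The remaining 4 genes had smaller differences. *SNHG5* read 241.2, 233.1 and 213.2 FPKM in Long, a difference of 0.06 (-0.06 to 0.18, adjusted p = 0.522) that was positive in passages 1 and 2 and negative in passage 3. *SNHG6* read 85.4, 89.7 and 77.5 FPKM (0.06, -0.08 to 0.19). *GAS5*, with 176.6, 184.7 and 149.7 FPKM, differed by 0.02 (-0.08 to 0.12, adjusted p = 0.833), and *SNHG1*, with 97.3, 111.3 and 111.8 FPKM, by -0.02 (-0.12 to 0.08, adjusted p = 0.853). Under a correction for GC content the difference of *GAS5* was 0.18 (adjusted p = 0.0695), that of *SNHG5* 0.17 and that of *SNHG6* 0.17, while that of *SNHG12* was -0.0074 and that of *SNHG15* 0.0094.

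In all, 1 of 9 members was called higher and 0 lower, where 1.99% of all genes were called higher and 6.33% lower in Long against EV. Unadjusted p was under 0.05 for 2 of 9 members, *SNHG16* and *ZFAS1*, no more than the 24.4% of all genes. Estimates lay above 0 for 8 of 9 members and for 60.7% of all genes, and under TPM for 5 of 9 and 40.5%. Higher in all 3 passages were 5 of 9 members (*SNHG6*, *SNHG12*, *SNHG15*, *SNHG16* and *DANCR*) against 27.4% of all genes. The member median was 0.079 and that of all genes 0.039, and by passage the member median was 0.118, 0.067 and 0.041.

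**Figure D2:**
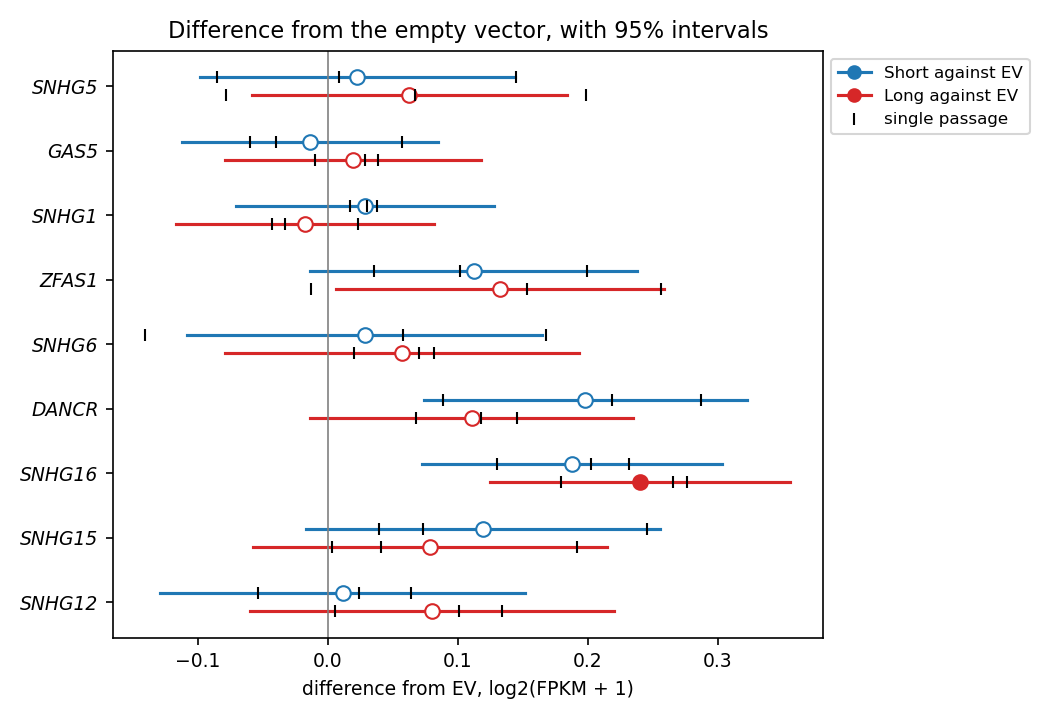
Fitted difference from EV in log2(FPKM + 1) for each host RNA, Short in blue and Long in red, with 95% intervals from limma and a tick for each passage. A filled point marks an adjusted p under 0.05, which *SNHG16* in Long reached at 0.24, and the other points are open.

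Between the isoforms, no host RNA passed the test. Long against Short ran from -0.09 for *DANCR* (-0.21 to 0.04, adjusted p = 0.806) to 0.07 for *SNHG12* (-0.07 to 0.21, adjusted p = 0.912). *DANCR* was lower in Long than in Short in 3 of 3 passages, at 0.931, 0.905 and 0.986 times. *SNHG16* was higher in 3 of 3, at 1.03, 1.05 and 1.04 times, with a difference of 0.05 (-0.06 to 0.17, adjusted p = 0.919). By limma 0 of 9 members passed, as did 0.00725% of all genes, and 0 had an unadjusted p under 0.05, where 7.54% of all genes did. A call for *SNHG16* in Long and none in Short is therefore not a tested difference between the isoforms. The comparisons of Short and of Long with EV share their 3 EV libraries.

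Cell passage separated these RNAs more than the plasmid did for 7 of the 9, which is close to the 70.0% of all genes for which the range of the 3 passage means exceeded that of the 3 group means. The 2 exceptions were *SNHG16*, with a passage range of 0.13 and a group range of 0.24 on the log2(FPKM + 1) scale, and *DANCR*, with 0.18 and 0.20. The group range of *SNHG16* was larger than that of 81.0% of all genes, and that of *GAS5*, 0.033, was larger than that of 4.24%. Over the members the median passage range was 0.24 and the median group range 0.080, where all genes had 0.22 and 0.14.

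Passage patterns were not shared by all hosts. *SNHG12* averaged 19.3, 22.5 and 26.4 FPKM over the 3 libraries of passages 1, 2 and 3, and the 3 passages did not overlap. Its passage range of 0.44, or 1.35-fold, exceeded that of 83.5% of genes. *SNHG1* had the same order, with means of 99.8, 110.5 and 114.9 FPKM and no overlap. *GAS5* ran differently, with 172, 184 and 149 FPKM and no overlap, so that passage 3 was its lowest and passage 2 its highest in EV, Short and Long alike.

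*SNHG6* (85.6, 88.0 and 74.4 FPKM) and *ZFAS1* (90.6, 93.0 and 77.7 FPKM) were also lowest in passage 3 under each plasmid. *DANCR* was lowest in passage 1 and highest in passage 3 (41.2, 43.3 and 46.7 FPKM), and *SNHG15* was highest in passage 2 (29.6, 37.4 and 30.8 FPKM). For *SNHG5* (228, 226 and 217 FPKM) no passage stood apart. Thus 3 of 9 members had all 3 passages separate, against 4.09% of all genes, and 7 of 9 had at least 1 separate pair, against 58.7%. The members lay above 70.0% to 97.9% of expressed genes in EV. No share was taken over genes of like level, so whether level accounts for this contrast was not tested. Libraries of passage 3 were the deepest of each group (1.12 to 1.21 times EV replicate 1) and had the lowest FPKM sum of each group, and their part in these differences was not tested.

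**Figure D3:**
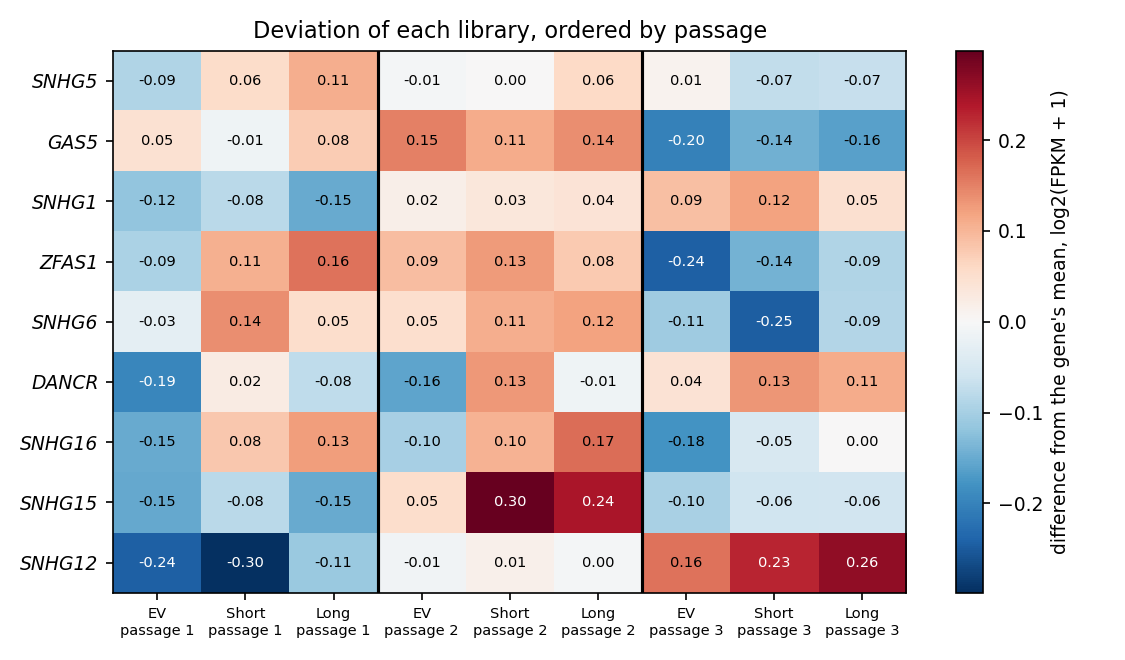
Deviation of each library from the mean of the 9 for every host RNA, in log2(FPKM + 1), with libraries ordered by passage and then by plasmid, red above and blue below the mean. *GAS5*, *SNHG6* and *ZFAS1* are blue throughout passage 3 (*GAS5* -0.20, -0.14 and -0.16), while *SNHG1*, *SNHG12* and *DANCR* are red there (*SNHG12* 0.16, 0.23 and 0.26).

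**Figure D4:**
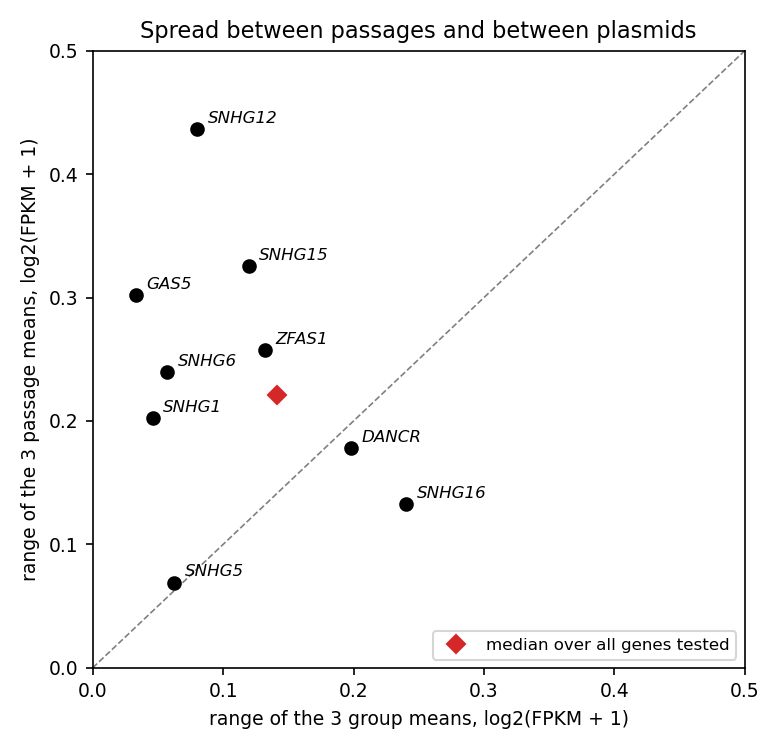
Range of the 3 passage means against range of the 3 group means of each host RNA, both in log2(FPKM + 1), with a dashed line of equality and the median of all genes tested as a red diamond. *SNHG16* and *DANCR* lie below the line, and *SNHG12* lies highest, at 0.44 between passages and 0.080 between groups.

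As a description over the 9 libraries, which share passages, some of the host RNAs fell into 2 loose sets. *GAS5*, *SNHG6* and *ZFAS1* correlated with each other at Pearson r of 0.77 to 0.83, and *SNHG1* with *SNHG12* at 0.84. Across the sets, *SNHG6* and *SNHG12* ran opposite ways (r = -0.67), as did *GAS5* and *SNHG12* (r = -0.58). *SNHG15* correlated above 0 with the members of both sets, from 0.14 with *SNHG12* to 0.52 with *GAS5*. *SNHG5*, *SNHG16* and *DANCR* were not placed in a set, but the sets had no sharp edge. The highest correlations of these genes with a member of a set were 0.76 for *SNHG16* (with *ZFAS1*), 0.66 for *SNHG5* (with *SNHG6*) and 0.65 for *DANCR* (with *SNHG1*). Of the 36 pairs, 22 were above 0 and 14 below, with a median of 0.35. The mean of the 9 members, each scaled to an SD of 1, was lowest in EV passage 1 (-0.90) and highest in Short passage 2 (0.74) and Long passage 2 (0.72).

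Among 7501 other genes averaging 10 FPKM or more, that mean profile was followed most closely by *TLCD1* (r = 0.95), *TAF6L* (0.94), *EMC3* (0.94), *GPR107* (0.93) and *TRIM11* (0.93). These are the highest values of a search over all 7501 genes in 9 libraries.

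The rest of the pathway was examined with lists. Of 11 other noncoding hosts listed, 10 had a row and 8 were tested, and 0 were called in any comparison by limma. *SNHG11* had the largest differences, with EV at 6.78, 8.46 and 6.93 FPKM, Short at 7.03, 10.7 and 8.95 FPKM and Long at 7.99, 9.01 and 9.07 FPKM (0.22 and 0.21, adjusted p of 0.185 and 0.183). *SNHG11* alone had an unadjusted p under 0.05 on this list in Short and in Long. The list medians were 0.078 in Short and 0.068 in Long, where those of all genes were 0.041 and 0.039. For this and the following lists, medians and counts above 0 were taken on FPKM only. They were not taken under TPM, where the median of all genes was -0.033 in Short and -0.028 in Long.

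Of 15 measured genes for the core and assembly of snoRNA-protein particles, 2 were called higher and 0 lower in Long than in EV. Over all genes the shares were 1.99% and 6.33%. *FBL*, fibrillarin, the methyltransferase that box C/D snoRNAs guide, went from 268.8, 266.1 and 254.0 FPKM to 319.5, 321.4 and 290.2 FPKM without overlap, a difference of 0.24 (adjusted p = 0.0105), and its Short libraries stood at 287.7 to 301.3 FPKM. *RUVBL2*, an ATPase of the assembly machinery, went from a mean of 125.1 to 141.9 FPKM (0.18, adjusted p = 0.0402). The call held in 7 of 13 alternatives for *FBL* and in 2 of 13 for *RUVBL2*. That of *FBL* was lost without passage 1 (0.128) or 2 (0.139), and that of *RUVBL2* without any of the passages (0.128, 0.359 and 0.237). The list median was 0.12, and that of all genes 0.039. In Short 0 were called and 6 of 15 had an unadjusted p under 0.05, where 22.0% of all genes did.

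Ribosomal protein genes that host snoRNAs, whose mRNAs are known for TOP starts, had 3 called higher and 0 lower of 28 in Long. Over all genes 1.99% were called higher and 6.33% lower. Such genes have many processed copies in the genome, with which reads can be shared. The called genes were *RPS3* (0.16, adjusted p = 0.0172), *RPL37* (0.14, adjusted p = 0.0402) and *RPL7A* (0.12, adjusted p = 0.0499). Over the alternatives their differences were as low as 0.083, 0.063 and 0.049. Of the 28 estimates, 27 were above 0, where 60.7% of all genes were. That share of all genes was 64.9% at a minimum mean of 5 FPKM and 40.5% under TPM. The list was not counted in either setting. The median was 0.089, and that of all genes 0.039. The calls held in 3, 3 and 2 of 13 alternatives. All 3 were lost without passage 1 (adjusted p of 0.129 to 0.164) or 2 (0.203 to 0.337), and those of *RPL37* and *RPL7A* also without passage 3 (0.104 and 0.143). In *RPS3* passage 3 was the lowest of each group, at 1973, 2095 and 2157 FPKM in EV, Short and Long, against 2283 to 2615 FPKM elsewhere. In Short 0 were called, with 12 of 28 at an unadjusted p under 0.05, where 22.0% of all genes were.

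Other protein-coding genes with a snoRNA gene inside them, were found by coordinates. Of 170 tested, 6 were called higher and 13 lower in Long, beside 1.99% and 6.33% of all genes. The largest differences were those of *STAG2*, a cohesin subunit (-1.08, adjusted p = 0.00965), *N4BP2* (-0.82, adjusted p = 0.0190), *USP34*, a deubiquitinase (-0.74, adjusted p = 0.00884), and *HAUS6*, of the augmin complex of the spindle (-0.69, adjusted p = 0.0109). *STAG2* stood at 54.0, 50.5 and 70.7 FPKM in EV and at 18.5, 19.3 and 54.0 FPKM in Long, so that its passage 3 library in Long was as high as EV passage 1. The calls of these 4 held in 9, 7, 10 and 8 of the alternatives. All 4 were lost without passage 1 (adjusted p of 0.128 to 0.133) and without the pairing by passage (0.637), and all but that of *USP34* without passage 2 (0.0562 to 0.111). In Short 0 of 170 were called, and 47 had an unadjusted p under 0.05, where 22.0% of all genes did.

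Regulators that act on TOP RNAs and on decay were mixed. *EIF4EBP1*, a repressor of cap-dependent translation, was higher in Long (130.4 to 146.0 FPKM, 0.17, adjusted p = 0.0461) and *RPS6KB1*, the S6 kinase, lower (32.9 to 26.4 FPKM, -0.35, adjusted p = 0.0321), of 6 tested. Of 10 nonsense-mediated decay factors, *UPF2* (9.62 to 7.05 FPKM, -0.44, adjusted p = 0.0427) and *UPF3B* (-0.35, adjusted p = 0.0148) were lower in Long and 0 were higher. *UPF2* in Long passage 3, at 10.2 FPKM, lay above EV passages 1 and 2, at 8.23 and 8.49 FPKM. Of 12 genes of growth and translation state, *MKI67*, a proliferation marker, was lower (75.1 to 58.7 FPKM, -0.39, adjusted p = 0.0368) and 0 were higher. In passages 1, 2 and 3 *MKI67* read 73.2, 68.4 and 83.5 FPKM in EV and 47.4, 47.4 and 81.4 FPKM in Long, so passage 3 hardly differed. *CCNB1* and *PCNA*, on the same list, differed by 0.08 and -0.03 (adjusted p of 0.401 and 0.783 by limma). Over all genes 1.99% were called higher and 6.33% lower in Long. These 3 lists had 0 calls in Short, with 4, 4 and 2 genes at an unadjusted p under 0.05, where 22.0% of all genes were. All lists had 0 calls between the isoforms. Each call of these 3 lists was lost without the pairing by passage, without passage 1 (adjusted p of 0.128 to 0.206), without passage 2 (0.151 to 0.390) and in 5 to 11 of the 13 alternatives in all, and that of *EIF4EBP1* also without passage 3 (0.241).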

How the data were processed

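Polyadenylated RNA of 9 HEK293 cultures was sequenced from a stranded kit. The authors mapped the reads to hg19 (TopHat 1.4.1 and Cufflinks are named in the submitters' processing notes, without roles) and deposited FPKM by Ensembl gene in 1 table with a column for each library. FPKM divides fragments by length and by the library's total, so abundant transcripts lower all other values. No counts are given. Depth was therefore estimated only relatively, and no counting interval was computed.

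Groups came from the sample labels. Names, exons and sequences came from GENCODE on GRCh37 (47578 identifiers matched, 87.2%), and snoRNA names from RefSeq (GRCh38.p14). Differences were tested with limma 3.58.1 (R 4.3.3) on log2(FPKM + 1), with a mean of at least 1 FPKM, all 9 libraries, group and passage as terms, an intensity trend and Benjamini-Hochberg adjustment over 13801 genes, with calls at an adjusted p under 0.05. The procedure was tested on simulated data with independent errors and the same plasmid effect in every passage. That test does not cover plasmid effects that differ between passages. Passage numbers come from the labels and the methods, and same-numbered libraries deviated together (r of 0.327 to 0.813 for 9 of 9 pairs). Some differently numbered pairs reached similar values. EV 1 correlated at 0.366 with Short 2 and 0.362 with Long 2, against 0.450 with Short 1 and 0.453 with Long 1. EV 2 correlated at 0.327 with Short 2 and 0.354 with Long 2, against 0.181 with Short 1 and 0.263 with Long 1. The size of r alone therefore does not tell same-numbered from differently numbered pairs. Exact tests were two-sided. Members and lists were chosen with earlier results of these data known. From each list, genes past the threshold were named (at most 4 per comparison, by size), otherwise up to 2 with the largest difference. Alternatives were another pseudocount (0.1), TPM and median-ratio scaling, other filters and models, GC and length corrections, and leaving out each passage.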

Additional observations from a re-analysis of the deposited data

How the results depend on the processing

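For *SNHG16* in Long against EV, the only member called in these data, 0 members were called under TPM, without the replicate block, with only the 2 groups and the replicate block, without the trend, without a filter, under the GC correction, and without each replicate (0 to 0). It stayed called with a pseudocount of 0.1, median ratios, a minimum mean of 5 FPKM and a length correction. Over all genes, the 1148 calls in Long became 2 without the replicate block, 2 without passage 1, 100 without passage 2, 752 with 2 groups, 646 without the trend, 323 under GC and 1 without a filter, where 27356 genes were tested. Of them 24% were higher, against 4.46% under TPM, 10.9% under median ratios and 40.9% under GC. In Short, 5 calls became 59 without passage 3. Causes were not tested.

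The member median in Short was -0.055 under TPM, 0.11 under GC and 0.034 to 0.113 without single replicates. In Long it was 0.0053 under TPM, and in Long against Short 0.0043 to 0.035 without single replicates.

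Uncalled estimates changed sign as follows. In Short, TPM gave *SNHG1* -0.055, *SNHG5* -0.061, *SNHG6* -0.055 and *SNHG12* -0.069. Median ratios gave *SNHG1* -0.023, *SNHG5* -0.029, *SNHG6* -0.023 and *SNHG12* -0.038. GC gave *GAS5* 0.11 and *SNHG12* -0.069, and length gave *SNHG6* -0.017 and *SNHG12* -0.029. Leaving out single replicates gave *GAS5* -0.049 to 0.0090, *SNHG5* -0.038 to 0.077, *SNHG6* -0.041 to 0.113 and *SNHG12* -0.015 to 0.044. In Long, TPM gave *GAS5* -0.056, *SNHG5* -0.013 and *SNHG6* -0.017, median ratios gave *GAS5* -0.020, GC gave *SNHG1* 0.018 and *SNHG12* -0.0074, length gave *GAS5* -0.0044, and single replicates gave *SNHG5* -0.0056 to 0.133. In Long against Short, GC gave *ZFAS1* -0.021 and single replicates *SNHG6* -0.037 to 0.086. Of 351 member fits, 316 kept direction and side of the threshold, 26 changed sign and 9 lost the *SNHG16* call. Apart from that call, the fit without the replicate block changed no member's call. Depth and 3 libraries per group limit what could be seen.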
